A study of Mus musculus with 10 samples.

Results

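The SOX9 peak lists of hair follicle stem cells (HFSCs) were compared with that of interfollicular epidermis (IFE) cells, from the skin surface that lies between hair follicles. The 3 lists come from 3 of the 10 samples of the series. HFSC list 1 holds 8181 peaks, HFSC list 2 holds 2989 and the IFE list holds 5209, which is 16379 peaks in all. Each peak was assigned to every gene locus within 10 kb, with locus positions (mouse build mm9) from the coordinates that the deposited expression table gives beside each gene. Every one of the 37298 gene rows was then placed in a class: a peak of both HFSC lists and none of the IFE list, a peak of the IFE list and none of either HFSC list, a peak of all 3 lists, or another combination.

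SOX9 is an HMG-box transcription factor, whose DNA-binding domain recognises short sequences around a core of the kind ACAAAG or ACAATG. In adult skin it is known as a factor of the bulge, the part of the follicle where HFSCs rest between hair cycles. The basal cells of the IFE renew the epidermis and share keratins, integrins and hemidesmosome genes with HFSCs, while the bulge is known for genes such as Lhx2, Nfatc1, Lgr5, Krt15 and Cd34.

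For the ChIP-seq (chromatin immunoprecipitation and sequencing) libraries, cells were sorted from telogen back skin of untreated CD-1 females aged 52 to 60 days, telogen being the resting phase of the hair cycle. HFSCs were taken as integrin α6-high, CD34-positive, ScaI-negative cells and IFE cells as integrin α6-high, CD34-negative, ScaI-negative cells, and a Millipore antibody to SOX9 was used in both. Expression values used beside the peaks come from 4 libraries of integrin α6-high, CD34-positive, YFP-positive HFSCs on a mixed C57BL6 background, all from mice treated with RU486, which activates the Cre-progesterone receptor fusion of this design. Of these, 2 are labelled Sox9 cKO (conditional knockout) and 2 are controls, which the titles call Het and the genotype field calls wild type. Replicate 1 of each is a male of day 75 treated on days 48 to 61, and replicate 2 a female of day 80 treated on days 53 to 66. The strain and treatment of the expression libraries thus differ from those of the peak lists.

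The labels do not say how many mice a library holds. There are 2 HFSC lists and 1 IFE list, so no test of HFSCs against IFE cells is possible. The only replicate spread is that between the HFSC lists. No expression library of IFE cells was used, so the identity of the IFE cells could not be checked against their markers. In the 2 control HFSC libraries, Krt15 stood at 9613 and 9375 FPKM (fragments scaled by gene length and library total), Cd34 at 652 and 680, Lhx2 at 359 and 195 and Sox9 at 82.7 and 46.5. Markers of differentiated epidermis were present too: Krt10 stood at 1729 and 3973 FPKM and Lor at 341 and 2775. Of the markers of other skin cells, 2 of 20 for fibroblasts and endothelium, 3 of 12 for melanocytes and 9 of 21 for immune cells reached a mean of 1 FPKM. Cdh5 of endothelium was listed at 0 in both libraries, Pdgfra of fibroblasts stood at 0.136 and 0.0661 and Ptprc of blood cells at 0.155 and 0.39. Others were higher: Cd74, of antigen presentation, stood at 28.4 and 71.0, Itgam of myeloid cells at 7.13 and 20.3, Thy1 at 4.40 and 13.7 and the melanocyte factor Mitf at 39.5 and 15.1.

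Promoters of 10 genes are printed because the classes differed in how many peaks stood at the 5′ ends of genes. Each is the 250 bases before the start of a gene in RefSeq on build GRCm38.p6, matched to the expression table by symbol, in lower case with any core ACAAAG or ACAATG, read on either strand, in capitals. The peaks are on mm9, so no peak was placed on these bases. The first set had a peak within 500 bp of the 5′ end in both HFSC lists and none there in the IFE list: Tagln2 (an actin-binding protein; chr1:172499996-172500245, plus strand), Numb (an inhibitor of Notch; chr12:83921935-83922184, minus strand) and Spred1 (an inhibitor of the RAS pathway; chr2:117120821-117121070, plus strand).
Tagln2: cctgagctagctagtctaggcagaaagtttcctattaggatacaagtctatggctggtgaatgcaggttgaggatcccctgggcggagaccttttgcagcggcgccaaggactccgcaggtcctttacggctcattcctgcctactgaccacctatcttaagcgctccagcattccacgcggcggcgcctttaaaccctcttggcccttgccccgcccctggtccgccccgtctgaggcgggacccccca
Numb: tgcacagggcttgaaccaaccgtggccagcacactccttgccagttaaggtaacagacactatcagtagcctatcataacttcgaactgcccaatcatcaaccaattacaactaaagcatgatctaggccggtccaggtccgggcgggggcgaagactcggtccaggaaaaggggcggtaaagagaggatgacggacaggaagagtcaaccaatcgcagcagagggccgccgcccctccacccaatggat
Spred1: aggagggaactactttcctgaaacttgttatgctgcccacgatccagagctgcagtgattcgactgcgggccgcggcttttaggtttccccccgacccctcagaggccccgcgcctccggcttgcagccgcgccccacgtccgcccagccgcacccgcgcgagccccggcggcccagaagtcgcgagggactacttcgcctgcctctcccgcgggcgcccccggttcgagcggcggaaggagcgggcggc

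The second set had such a peak in the IFE list and in neither HFSC list: Dusp1 (a MAP kinase phosphatase; chr17:26508473-26508722, minus strand), Fzd7 (a WNT receptor; chr1:59481897-59482146, plus strand), Jag1 (a Notch ligand; chr2:137116521-137116770, minus strand) and Itgb1 (integrin β1, a receptor of basal cells for the matrix; chr8:128685404-128685653, plus strand).
Dusp1: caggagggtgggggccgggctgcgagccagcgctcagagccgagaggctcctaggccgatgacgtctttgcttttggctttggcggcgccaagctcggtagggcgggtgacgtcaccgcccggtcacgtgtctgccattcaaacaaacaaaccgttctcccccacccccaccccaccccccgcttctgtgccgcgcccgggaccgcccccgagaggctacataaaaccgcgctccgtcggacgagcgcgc
Fzd7: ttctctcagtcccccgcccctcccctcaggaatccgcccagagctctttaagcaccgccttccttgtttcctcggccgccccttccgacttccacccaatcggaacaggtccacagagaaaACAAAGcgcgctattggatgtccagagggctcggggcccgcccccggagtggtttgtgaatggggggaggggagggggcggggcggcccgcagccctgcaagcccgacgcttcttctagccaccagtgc
Jag1: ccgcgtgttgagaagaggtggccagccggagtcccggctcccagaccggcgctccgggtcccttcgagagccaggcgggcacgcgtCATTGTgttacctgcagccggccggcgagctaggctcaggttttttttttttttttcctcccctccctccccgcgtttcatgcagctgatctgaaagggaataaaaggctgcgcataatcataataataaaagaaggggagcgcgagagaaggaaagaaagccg
Itgb1: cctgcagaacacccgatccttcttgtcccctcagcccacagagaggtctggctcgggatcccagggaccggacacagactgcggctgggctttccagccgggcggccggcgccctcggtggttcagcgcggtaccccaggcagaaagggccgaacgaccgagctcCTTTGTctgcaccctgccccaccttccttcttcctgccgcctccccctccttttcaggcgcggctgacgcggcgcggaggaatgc

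The third set had one in all 3 lists: Junb (chr8:84978749-84978998, minus strand) and Atf3 (chr1:191183334-191183583, minus strand), both factors of the AP-1 group that answers to stress and growth signals, and Gas1 (a membrane protein of the Hedgehog pathway; chr13:60177536-60177785, minus strand).
Junb: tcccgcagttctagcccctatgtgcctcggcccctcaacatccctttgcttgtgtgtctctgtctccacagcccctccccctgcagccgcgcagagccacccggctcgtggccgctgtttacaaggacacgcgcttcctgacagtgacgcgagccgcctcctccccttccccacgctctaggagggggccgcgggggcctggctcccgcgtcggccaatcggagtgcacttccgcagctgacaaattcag
Atf3: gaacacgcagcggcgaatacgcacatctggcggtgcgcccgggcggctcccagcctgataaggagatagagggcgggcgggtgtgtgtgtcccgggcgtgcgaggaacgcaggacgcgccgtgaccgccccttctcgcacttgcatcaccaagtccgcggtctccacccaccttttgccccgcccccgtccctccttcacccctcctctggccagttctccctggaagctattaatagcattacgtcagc
Gas1: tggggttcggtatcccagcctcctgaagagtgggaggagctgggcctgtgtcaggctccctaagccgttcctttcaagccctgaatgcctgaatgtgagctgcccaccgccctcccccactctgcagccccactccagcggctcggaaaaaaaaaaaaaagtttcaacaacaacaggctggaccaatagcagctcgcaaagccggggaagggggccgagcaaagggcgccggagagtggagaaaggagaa

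A core match stood in 3 of the 4 IFE promoters shown, Fzd7, Jag1 and Itgb1, and in none of the other 7. That choice of genes is not representative. Over all loci listed for a single gene and matched to a promoter (10280), a core stood within the 300 bases around the start in 13 of the 71 promoters with a 5′ peak in both HFSC lists only (18.3%), in 70 of 478 with one in the IFE list only (14.6%), in 39 of 282 with one in all 3 lists (13.8%) and in 2574 of 8678 with none (29.7%). The share over all 32851 RefSeq promoters was 28.6%. Base composition moved with it: the median GC content was 62.3%, 66% and 65.7% in the 3 classes and 53% without a 5′ peak. The GC box letters GGGCGG, on either strand, were in 74.7%, 79.9% and 78.4% of the promoters of the 3 classes and in 36.4% of those without a peak. The part of base composition in the core counts was not tested. AP-1 letters (TGANTCA, which reads the same on both strands) were in 1.41%, 3.56% and 4.26% of the 3 classes, against 8.63% without a 5′ peak and 7.81% of all RefSeq promoters. In the core, GC box and AP-1 letters, the 3 classes of 5′ ends thus resembled one another more than the 5′ ends without a peak. The letters CCGGAA and TATAAA followed that order too, but others did not. AACAAT was in 9.86%, 3.35% and 6.38% of the 3 classes, against 11.89% without a 5′ peak. CACGTG was in 5.63%, 13.18% and 9.22%, against 7.33%, and CCAAT in 39.44%, 40.17% and 44.68%, against 39.35%. A match or its absence in 300 bases says nothing about binding.

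HFSC list 2 shared more of its peaks with HFSC list 1 than with the IFE list, at 68.6% (95% exact Clopper-Pearson interval 66.8 to 70.2) against 57.6%, counting an overlap of at least 1 bp. The intervals cover counting error only. The IFE list shared 45.7% of its peaks with HFSC list 1 and 33.3% with HFSC list 2. The longest list, HFSC list 1, shared 25.0% of its peaks with HFSC list 2 and 28.9% with the IFE list. HFSC list 1 therefore had no larger share in the other HFSC list than in the IFE list. A share depends on how many peaks the other list offers to meet, and the 3 lists differ in length, so these shares do not rank the lists by likeness.

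For HFSC list 2 the order depended on where the peaks lie. The deposited coordinates can merge neighbouring genes into 1 locus. Only the ends of the deposited loci count as gene ends here, so a gene end inside a merged locus counts as elsewhere. Of the peaks within 500 bp of either end of a locus, HFSC list 2 shared 50.3% with HFSC list 1 and 64.9% (62.2 to 67.5) with the IFE list. Elsewhere it shared 82.9% (81.0 to 84.7) with HFSC list 1 and 51.9% (49.5 to 54.3) with the IFE list. The peaks on offer moved the same way, with 1501 of HFSC list 1 and 2159 of the IFE list at gene ends and 6680 and 3050 elsewhere, and their part in this order was not tested. HFSC list 1 shared less with HFSC list 2 than with the IFE list in both places, 44.3% against 56.2% at gene ends and 20.7% against 22.8% elsewhere. Peaks of the IFE list at gene ends were shared at nearly the same rate with both HFSC lists, 39.2% with list 1 and 39.6% with list 2. Elsewhere the IFE list shared 50.4% with HFSC list 1 and 28.8% with HFSC list 2.

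**Figure D1:**
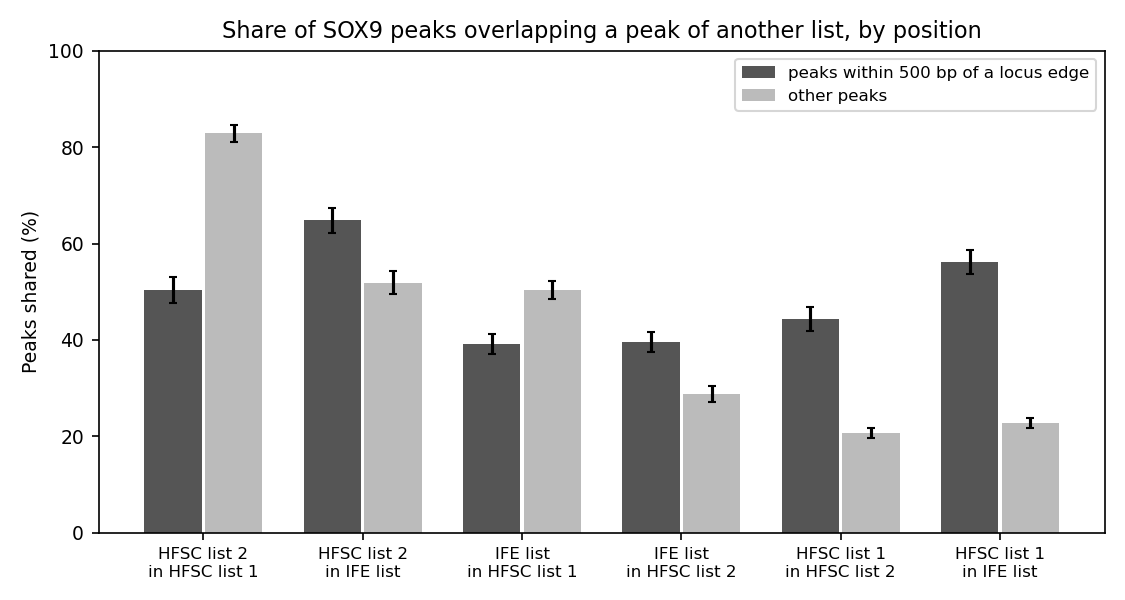
Bars give the share (%) of the peaks of 1 list that overlap a peak of another by at least 1 bp, for peaks within 500 bp of a locus end (dark) and all others (light); error bars are exact 95% binomial intervals of counting error. In the leftmost pair of bars, HFSC list 2 peaks were shared with HFSC list 1 at 50.3% at locus ends and 82.9% elsewhere, and in the next pair with the IFE list at 64.9% and 51.9%.

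The lists also differed in composition. Peaks at gene ends made up 18.3% of HFSC list 1, 44.0% of HFSC list 2 and 41.4% of the IFE list, so in this respect the HFSC lists differed from each other by more than HFSC list 2 differed from the IFE list. Peaks were 616 and 646 bp wide at the median in the HFSC lists and 522 bp in the IFE list. Merging all peaks gave 11446 regions, of which 786 (6.87%) were in both HFSC lists only, 2352 (20.5%) in the IFE list only and 1245 (10.9%) in all 3. Of the regions in both HFSC lists only, 16.2% lay at a gene end, against 42.3% of those in the IFE list only and 43.5% of those in all 3. Regions in 1 HFSC list alone split the same way as the lists did: 10.5% of the 5014 in HFSC list 1 alone and 70.7% of the 474 in HFSC list 2 alone lay at a gene end. Whether the lists differ through the cells, the depth or the peak calling cannot be told apart, since they hold positions only.

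Gene by gene, 721 rows (1.93%) had peaks of both HFSC lists and none of the IFE list, 2354 (6.31%) had peaks of the IFE list only and 3246 (8.7%) had peaks of all 3. These 3 percentages are the background for every gene group below. Another 25086 rows had no peak within 10 kb. The rest had peaks of 1 HFSC list, alone (2523 for list 1 and 586 for list 2) or with the IFE list (1957 and 825). At the level of loci, HFSC list 2 shared 73.8% of its gene rows with HFSC list 1 and 75.7% with the IFE list, a difference in the other direction from that of the peaks. Rows can share a locus, because the deposited coordinates merge neighbouring genes: the 3 classes come to 444, 1539 and 1731 distinct loci, and 1 merged locus on chromosome 8 alone holds 159 rows with 37, 14 and 39 peaks of the 3 lists.

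The class of a locus does not always reflect the same binding region. Among the 3246 rows with peaks of all 3 lists, 79.8% had a region within 10 kb where the 3 lists overlapped. Among the 721 rows of both HFSC lists only, 84.1% had HFSC peaks that overlapped each other. Most rows of the IFE class rested on a single peak (88.8%), and in 56.3% of them every peak lay at a gene end. In the class of both HFSC lists only, 28.3% of the rows had all their peaks at gene ends and 49.2% had none there. An IFE peak lay between 10 and 12 kb away for 2.50% of the HFSC rows, and within 50 kb for 27.3% of them. For the IFE class, an HFSC peak lay within 12 kb in 3.06% and within 50 kb in 40.6%.

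Class membership also moved with locus length. Among loci listed for 1 gene, the class of both HFSC lists only held 0.512% of the loci under 5 kb and 4.27% of those of 100 to 200 kb. The IFE class went from 2.04% to 9.81% over the same lengths, and the class of all 3 lists from 1.99% to 10.4%. All 3 classes thus took a larger share of loci of 100 to 200 kb than of loci under 5 kb. The median locus length was 49.0, 35.7 and 51.7 kb in the classes and 8.19 kb without a peak.

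**Figure D2:**
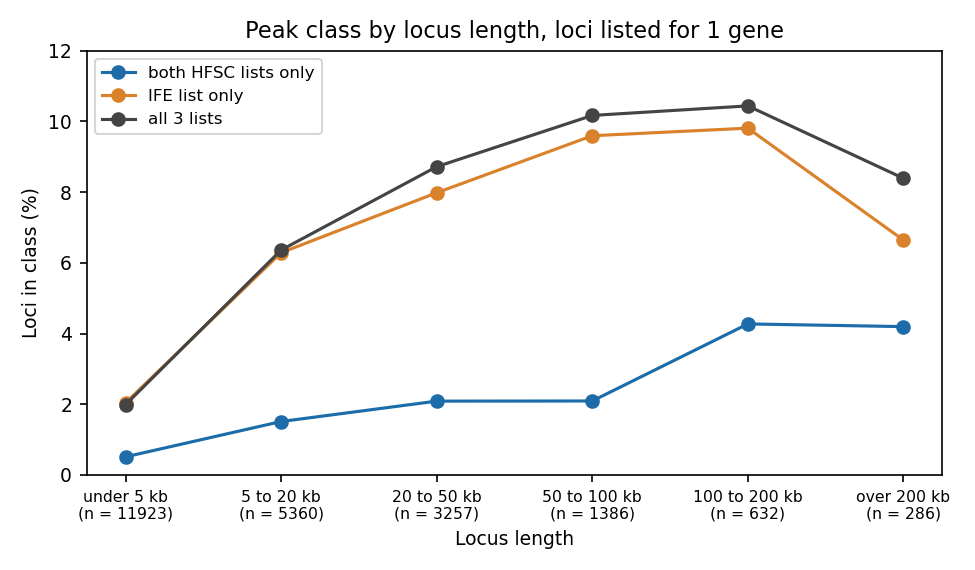
Lines give the share (%) of loci in each of 3 peak classes (vertical axis) by locus length (horizontal axis, with the number of loci), for loci whose coordinates belong to 1 gene row. The share was lowest under 5 kb in all 3 classes, at 0.512%, 2.04% and 1.99%.

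Control HFSCs expressed genes of all 3 classes. Median FPKM in the 2 control libraries was 5.04 and 3.52 for the class of both HFSC lists only, 3.16 and 2.55 for the IFE class and 7.60 and 5.63 for all 3 lists, against 0.00540 and 0 for loci without a peak. The ranges of the first 2 classes did not overlap between libraries, and the IFE class was the lowest of the 3 in both. Unlike the other 2 classes, the IFE class rests on 1 list. Loci with peaks of HFSC list 1 alone had lower medians than the IFE class, 1.57 and 1.20. Those with peaks of HFSC list 2 alone had higher ones, 9.06 and 6.87. A mean control FPKM of at least 1, called expressed here, was found for 61.2%, 59.9% and 65.1% of the classes and for 7018 of the 25086 loci without a peak. Among expressed genes alone the medians were 17.8 and 12.8, 12.1 and 10.1, and 19.4 and 15.4, against 9.81 and 9.40 without a peak. Genes with an IFE peak only were therefore mostly expressed in HFSCs as well, at 59.9% against 38.8% of all rows. Of the rows of the IFE class, 55.2% share their locus with another row, so the peak need not lie close to the expressed gene.

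Transcription factors that mark the HFSC itself were mostly found near peaks of all 3 lists. Of 20 transcription factors of HFSC identity, 11 had peaks of all 3, 1 of both HFSC lists only and 1 of the IFE list only. Lhx2, a LIM-homeodomain factor that maintains the bulge, had 6, 3 and 1 peaks within 10 kb in HFSC list 1, HFSC list 2 and the IFE list. All 3 lists met in 1 region at its upper end (HFSC list 1 at chr2:38224006-38224854), while 2 further HFSC regions 7285 and 9260 bp beyond that end, at chr2:38232539-38233161 and chr2:38234514-38235051 in HFSC list 1, were in both HFSC lists and not in the IFE list. Nfatc1, which holds HFSCs in quiescence, had 6, 2 and 2 peaks. Vdr, the vitamin D receptor that the hair cycle needs, had 7, 1 and 2.

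Where the 3 lists met at a locus of this group, they did not always meet at the same place. Only 6 of the 11 loci had a region of all 3 lists, and Sox9, Tcf7l1, Nfib, Runx1 and Vdr had none. Within Sox9 itself, HFSC list 1 (chr11:112646839-112647463) and the IFE list (chr11:112647001-112647381) shared a peak inside the locus, away from both ends, and the 2 peaks of HFSC list 2 overlapped neither. At Tcf7l1, a repressor of WNT target genes, HFSC list 2 and the IFE list shared a peak at the upper end of the locus, and the 3 peaks of HFSC list 1 lay elsewhere in it. Tcf7l2, its relative, was in the class of both HFSC lists only: its overlapping HFSC peaks stood at chr19:55853957-55854860 in list 1, and the nearest IFE peak was 318 kb away.

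By the ends of the deposited loci, the peaks of this group lay mostly away from gene ends. Away from gene ends, 75% of its members had a peak of HFSC list 1, 55% of HFSC list 2 and 70% of the IFE list, against 22.7%, 11.1% and 18.2% of all 14480 expressed genes. At gene ends the shares were 30%, 15% and 10%, against 16.6%, 15.2% and 23.1%. The median locus of the group was 111 kb long, against 25.9 kb for expressed genes, and the part of length in these shares was not tested. Several members, such as Lhx2, Tcf7l1, Nfib and Foxp1, share merged loci with other rows. Gene ends inside such loci count as away from gene ends, so these shares do not separate promoters from distant sites.

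Surface and secreted markers of the bulge differed between the lists by position. By class, 6 of them (25%) had peaks of all 3 lists, 2 of both HFSC lists only, 1 of the IFE list only and 9 had no peak. Away from gene ends, 50% of 24 such genes had a peak of HFSC list 1, 29.2% of HFSC list 2 and 12.5% of the IFE list, against 22.7%, 11.1% and 18.2% of expressed genes. At gene ends the shares were 25%, 8.33% and 29.2%, against 16.6%, 15.2% and 23.1%. Lgr5, the R-spondin receptor of cycling and bulge stem cells, had 6 peaks in HFSC list 1 and 1 in HFSC list 2. The shared one lay inside the locus (chr10:114987149-114987820 in list 1 and chr10:114987015-114987736 in list 2), and the nearest IFE peak was 87.7 kb from the locus. S100a4, a calcium-binding protein, had 3 and 1 HFSC peaks, of which 1 pair overlapped 5246 bp below the locus (chr3:90401337-90402445 in list 1), with an IFE peak 13.2 kb away. Krt15 was in all 3 lists, which met in 1 region 448 bp beyond its upper end (chr11:99997712-99998465 in HFSC list 1). Npnt, a matrix protein that anchors the arrector muscle at the bulge, was the single member with an IFE peak only. Cd34 had no peak within 10 kb of any list, though both HFSC lists had one 43.1 and 42.9 kb away and the nearest IFE peak was 495 kb away. The Cd34 distances run from the ends of a merged locus of 99088 bp that 5 rows share, so Cd34 itself can lie farther away. These distances were looked up after the classes were known.

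**Figure D3:**
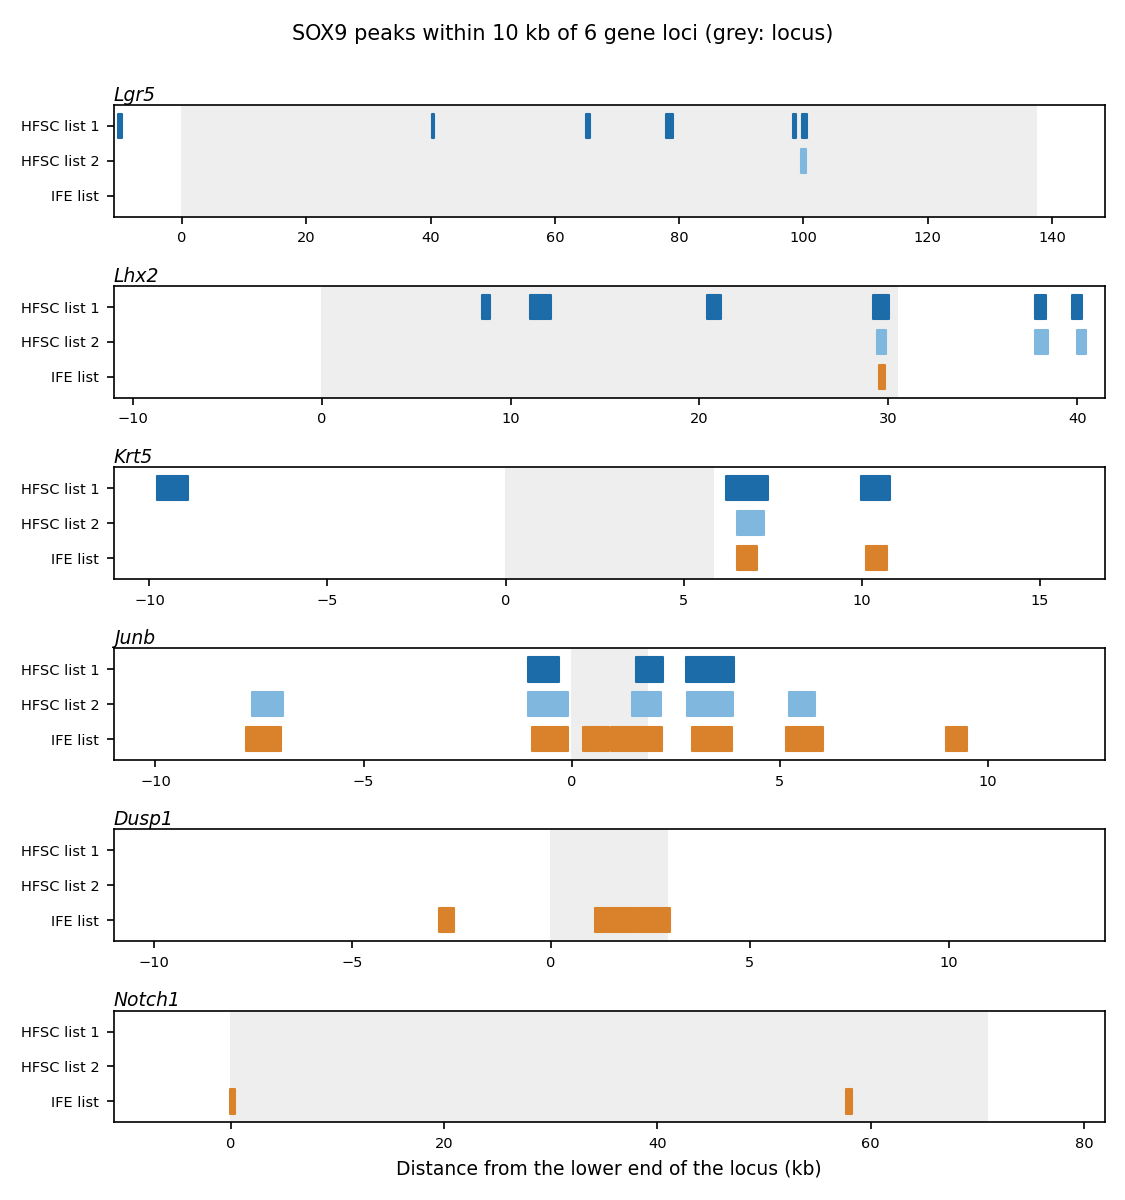
Bars mark SOX9 peaks of HFSC list 1, HFSC list 2 and the IFE list (rows) around 6 gene loci (grey), by distance in kb from the lower end of each locus. Lgr5 has 6 and 1 HFSC peaks and none of the IFE list, Junb has 3, 5 and 7, and Dusp1 and Notch1 have 3 and 2 peaks of the IFE list alone. The loci drawn for Lgr5, Lhx2 and Notch1 are merged loci shared with other gene rows.

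Genes of the WNT pathway with a peak were mostly near peaks of all 3 lists. Of 43 genes, 15 had peaks of all 3 lists (34.9%), 3 of both HFSC lists only and 2 of the IFE list only, and 20 had no peak. Among ligands, Wnt3a, Wnt4, Wnt5b, Wnt6, Wnt7b, Wnt10a and Wnt10b were near peaks of all 3 lists. Every one of the 15 loci held a region where the 3 lists overlapped. The genes with peaks of both HFSC lists only were receptors or co-receptors: Fzd2 with 2 peaks in each HFSC list, Lrp6 with 2 and 1, and Lgr4 with 4 and 1. In Fzd2, both pairs overlapped, 1 at the lower end of the locus (chr11:102465375-102465985) and 1 at 5353 bp beyond the upper end. The nearest IFE peak was 196 kb from Fzd2, 58.0 kb from Lrp6 and 314 kb from Lgr4. The genes with an IFE peak only were also receptors, Fzd5 and Fzd7, with 1 peak each at a gene end. The Fzd7 peak was at chr1:59538700-59539428, and the nearest HFSC peak was 32.8 kb away. Receptors and co-receptors were not limited to these 2 classes, since Lrp5 had peaks of all 3 lists. The receptor genes of the HFSC lists only and of the IFE list only number 5, with 1 IFE library behind them.

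Notch, Hedgehog and TGF-beta genes were more often in the IFE class than all rows (6.31%) or expressed rows (9.74%) were. That class needs a peak of 1 list, whereas the class of both HFSC lists only needs peaks of 2. Peaks of HFSC list 1 alone were found for 2 Notch, 3 Hedgehog and 4 TGF-beta genes, and of HFSC list 2 alone for 2, 0 and 1. Over all rows, these classes of a single HFSC list held 6.76% and 1.57%. Of 24 Notch genes, 6 had peaks of the IFE list only (25%, against 6.31% of all rows and 9.74% of expressed ones): the receptors Notch1 and Notch3, the ligands Dll1 and Jag1, the target Hey2 and the DNA-binding partner Rbpj. Notch1 had 2 IFE peaks within 10 kb of its locus, at chr2:26301084-26301634 and chr2:26358940-26359504. The nearest HFSC peak was 37.0 kb from that locus. It is a merged locus of 70968 bp that 3 rows share, so these peaks need not be close to Notch1 itself. Numb was the single Notch gene of both HFSC lists only, with overlapping peaks at its 5′ end (chr12:85262665-85263514 in list 1), and Jag2, Numbl and Lfng had peaks of all 3 lists. Of 38 genes of the TGF-beta, activin and BMP pathway, 8 were IFE only (21.1%): Tgfbr2, Bmp2, Bmp4, Bmpr1b, Smad3, Smad9, Id1 and Skil, with 1 peak each. None was in the class of both HFSC lists only, but 14 had a peak of HFSC list 1, among them Smad7 with 3, and only 4 had one of HFSC list 2. Of 12 Hedgehog genes, Shh, Ptch1 and Smo were IFE only (25%). The Shh row rests on 1 peak near a merged locus of 477181 bp that 4 rows share, so the peak need not be close to Shh, which was listed at 0 FPKM in all 4 libraries. The co-receptors Cdon and Gas1 were in all 3. Most members of the IFE class in these pathways rested on 1 peak. The median locus was 19.25 kb long for Notch, 44.9 kb for Hedgehog and 60.4 kb for TGF-beta genes. It was 17.1 kb over all rows and 25.9 kb over expressed ones, and the part of length in these shares was not tested.

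Genes of epithelial attachment were more often near peaks of all 3 lists than expressed genes as a whole (14.6%). Of 32 integrin, laminin and hemidesmosome genes, 12 (37.5%) had peaks of all 3, 1 of both HFSC lists only (Itgb8) and 2 of the IFE list only (Itgb1 and Npnt). Col17a1, the transmembrane collagen of hemidesmosomes, had 7, 1 and 1 peaks, but the HFSC list 2 peak (chr19:47772768-47773269) and the IFE peak (chr19:47766217-47766809) overlapped different peaks of HFSC list 1. Itga6, the integrin used to sort both cell types, had 2, 1 and 2, again with no region common to the 3 lists. The single Itgb1 peak, at chr8:131209230-131210216, covered its 5′ end, and the nearest HFSC peak was 186 kb away. Of 32 genes of cadherins, desmosomes and junctions, 10 were in all 3, among them Cdh1, Cdh3, Dsp, Jup and Pkp1, and each of the 10 held a region of all 3 lists. The 4 with an IFE peak only were Pkp4, Ctnna1, Ctnnd1 and Tjp1, which encode proteins of the cytoplasmic side of junctions.

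Transcription factors and keratins of the epidermis were not confined to the IFE list. Of 30 epidermal factors, 9 had peaks of all 3 lists and 2, Tfap2c and Ets2, of the IFE list only. Trp63, the p63 gene on which stratified epithelia depend, had 7, 1 and 2 peaks, and the 3 lists met in a wide region of it (chr16:25843603-25844993 in HFSC list 1). Klf4, a factor of the differentiating layers, had 2 peaks in HFSC list 1, none in HFSC list 2 and 4 in the IFE list. Krt5 and Krt14, the keratin pair of basal cells, each had a region of all 3 lists beyond the upper end, at chr15:101543699-101544862 and chr11:100069797-100070432 in HFSC list 1. Each also had a region shared by HFSC list 1 and the IFE list. Of 30 basal and follicle keratins, none was IFE only, 4 were in all 3 and Krt24 was in both HFSC lists only. Among 38 genes of differentiation and the cornified envelope, 28 had no peak (73.7%, against 67.3% of all rows), including Krt1, Ivl and Lor. Of the 38, 31 were expressed, and 48.5% of expressed rows had no peak. Their median locus was 4.79 kb long, and 89.9% of loci under 5 kb listed for 1 gene had no peak. The parts of expression and length in this share were not tested. Tgm1 and Aloxe3, which act in crosslinking and barrier lipids, were IFE only, the crosslinking enzyme gene Tgm5 was in both HFSC lists only with 2 peaks in each, and Ppl, Evpl and Krtdap were in all 3. Krt10 had 1 peak, in HFSC list 1.

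AP-1 and early response genes carried peaks in every list, at gene ends and away from them. Of 20 genes, 10 (50%) were in all 3 lists, against 8.7% of all rows and 14.6% of expressed ones, and each of the 10 held a region of all 3 lists. Junb had 3, 5 and 7 peaks in a locus of 1807 bp and its flanks. Within 500 bp of a gene end, 55%, 35% and 65% of the group had a peak in the 3 lists, against 16.6%, 15.2% and 23.1% of expressed genes. Their transcripts were abundant in the control HFSCs, with a median over the group of 97.4 FPKM. Klf6 alone was IFE only, with 1 peak, and no member was in both HFSC lists only. Dusp1, another early response gene but no member of the group, had 3 peaks of the IFE list only. These peaks, the widest at chr17:26643645-26644677, had no HFSC peak nearer than 26.4 kb, although Dusp1 stood at 1041 and 555 FPKM in the control HFSCs.

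**Figure D4:**
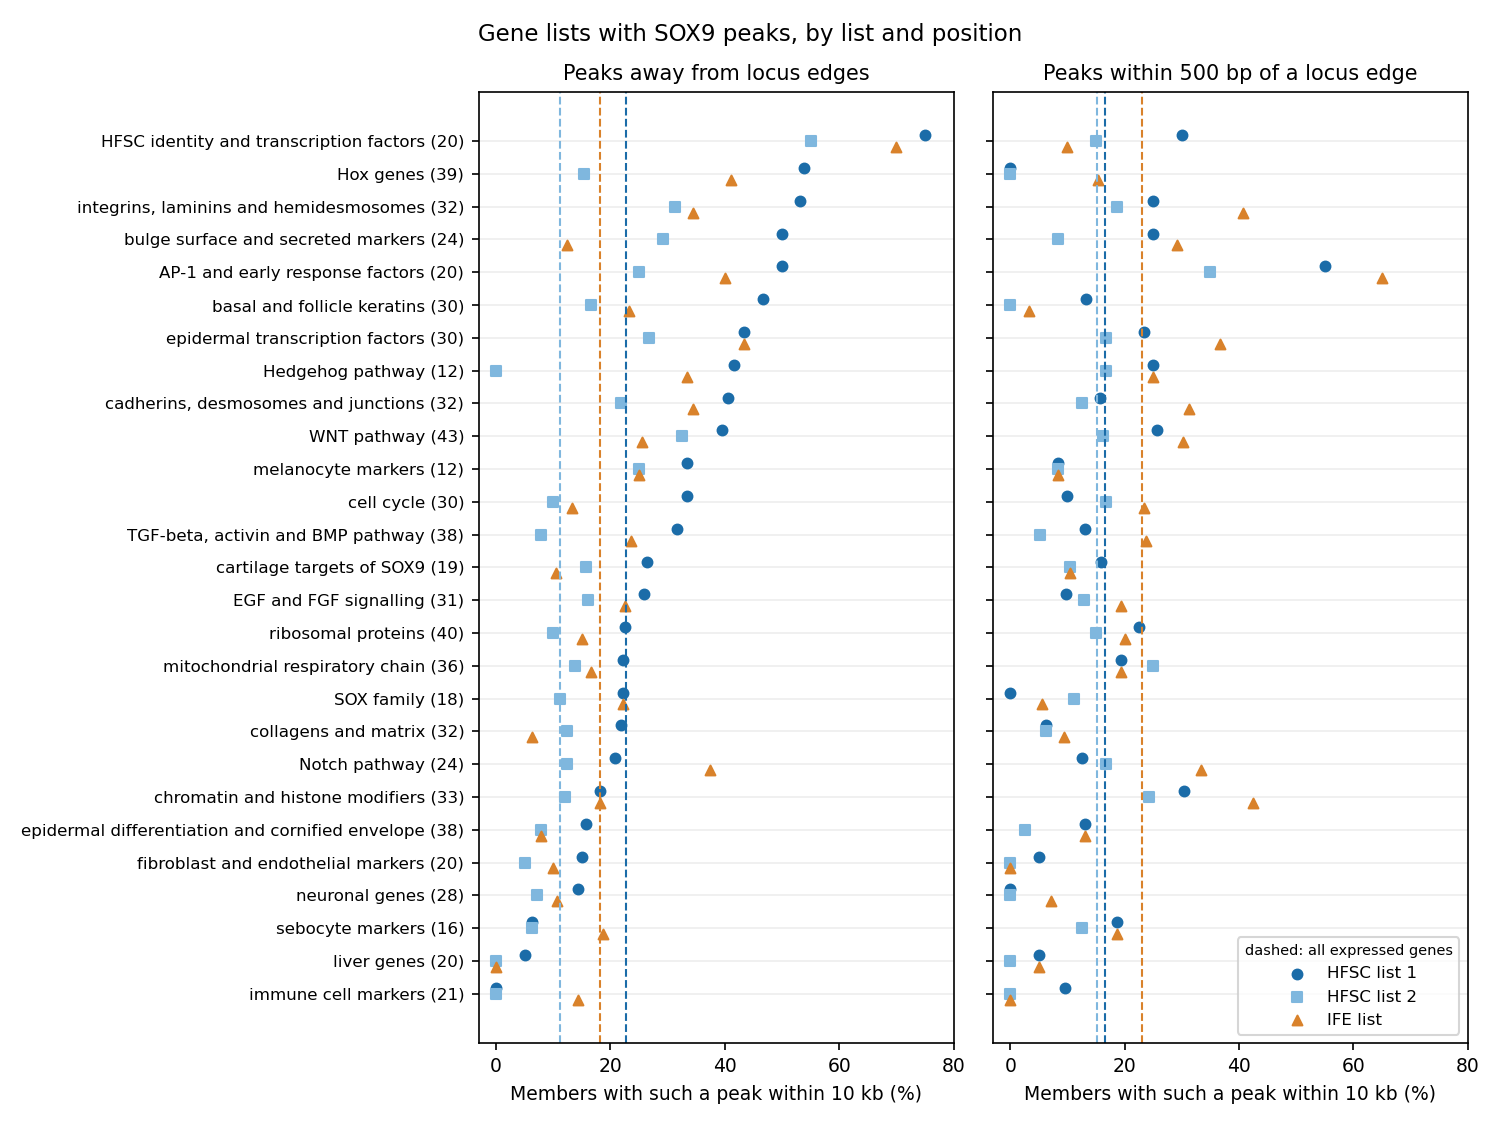
Points give, for each gene list reported here (number of members in parentheses), the share (%) of members with a peak of HFSC list 1, HFSC list 2 or the IFE list within 10 kb, separately for peaks away from gene ends (left) and within 500 bp of one (right). Dashed lines give the same over all 14480 expressed genes. HFSC identity factors reach 75%, 55% and 70% on the left and 30%, 15% and 10% on the right.

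Loci with the most HFSC peaks and no IFE peak included long genes. Among loci listed for 1 gene, App, the amyloid precursor gene, led with 7 and 1 peaks over 219268 bp, of which 1 pair overlapped (chr16:85148911-85149477 in list 1). It stood at 581 and 392 FPKM in the controls, and the nearest IFE peak was 22.5 kb away. Kcnma1, a potassium channel gene of 504544 bp, also had 7 and 1. Adamtsl4, a secreted protein of microfibrils, had 4 and 2 peaks around only 11717 bp. Both pairs overlapped, at chr3:95478685-95479352 and chr3:95500401-95500902 in list 1, and the nearest IFE peak was 14.0 kb away. Of the collagens, Col4a1, Col4a2 and Col5a1 were in both HFSC lists only, 3 of 32 collagen and matrix genes (9.38%, against 1.93% of all rows), but Col4a1 and Col4a2 share 1 locus and count once as a place.

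The libraries labelled cKO were compared with their controls as a readout that the peak lists did not use. Sox9 itself was not consistently lower in them: it stood at 71.3 against 82.7 FPKM in pair 1 and at 80.5 against 46.5 in pair 2, so directions below follow the labels. Without the replicate number in the model, limma called 0 of 14455 genes (0.0%), with 93 at an unadjusted p under 0.05. With the replicate number as a block, it called 41 genes (0.284%), 15 higher and 26 lower, and 1648 had an unadjusted p under 0.05. The fit without the block was the main one planned, and the block was planned as an alternative. The pairs share sex, age and treatment days per the labels, which is why the blocked values are given here. They measure only the spread between these 4 libraries.

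Of the 439 tested genes with peaks of both HFSC lists only, 7 passed with the block (1.59%), and all 7 were lower in the libraries labelled cKO. Of 1400 tested genes of the IFE class, 1 passed (0.0714%), the small nucleolar RNA Snord72. Of 2089 with peaks of all 3 lists, 9 passed (0.431%), 3 higher and 6 lower, and of 7030 without a peak 18 passed (0.256%), 11 higher and 7 lower. The difference between classes was not tested. At an unadjusted p under 0.05 the shares were 20%, 8.79%, 10.9% and 11.8% in the same order, against 11.4% of all genes. The median log2 change in the same order was -0.05, -0.03, -0.02 and 0.02.

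The 7 genes were S100a4, Fam132a, Phyhip, Timp2, Thsd1, Gm16314 and Snord45b. S100a4 stood at 1168 FPKM in the control of pair 1 and 310 in the library labelled cKO, and at 2862 and 1051 in pair 2. The groups did not overlap, but the library labelled cKO of pair 2 lay close to the control of pair 1. Its log2(FPKM + 1) change was -1.68 ± 0.16 (moderated SE, n = 2 libraries per group; limma with the block, adjusted p = 0.0252). Timp2, an inhibitor of matrix metalloproteases, stood at 254 and 185 FPKM in the controls and at 126 and 95.7 in the libraries labelled cKO, with no overlap (log2 change -0.98 ± 0.12, limma with the block, adjusted p = 0.0347). Its locus had 2 and 1 HFSC peaks, and the nearest IFE peak was 62.9 kb away. Phyhip stood at 126 and 128 FPKM in the controls and at 59.9 and 61.7 in the libraries labelled cKO (log2 change -1.05 ± 0.12, limma with the block, adjusted p = 0.0297).

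Of the other 4, Fam132a, which encodes a secreted protein, and the thrombospondin-domain gene Thsd1 changed by -1.26 and -1.16, and the predicted gene Gm16314 by -1.66. S100a4, Fam132a and Phyhip had loci of their own, and the other 4 shared theirs with another gene row. With the window set to 1 kb the class held 4 called genes, and with peaks away from gene ends 7. Without the block, 0 of the 7 passed, and leaving out 1 library at a time left at most 1 called gene in the class.

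In the class of all 3 lists, the 6 lower genes included Lhx2, which stood at 359 and 195 FPKM in the controls and at 114 and 87.1 in the libraries labelled cKO, with no overlap (log2 change -1.40 ± 0.15, limma with the block, adjusted p = 0.0273). Among the other 5 were Wfdc3, Sulf2, a sulfatase that edits heparan sulfate outside the cell, and the metalloprotease Mmp11. Higher in the libraries labelled cKO were Errfi1, an inhibitor of EGF receptor signalling (47.5 and 31.9 FPKM in the controls, 112 and 99.1 labelled cKO), the chemokine Ccl27a and the guidance cue Slit3. Ccl27a has near-identical copies, of which Ccl27b passed as well, so its reads may be split between them. The predicted genes Gm2506 and Gm13306, also on chromosome 4, passed with values close to those of Ccl27b. In the library labelled cKO of pair 1, Ccl27b, Gm2506 and Gm13306 stood at 1034, 1046 and 1068 FPKM. All of them are among the 11 higher genes without a peak and may not be separate signals.

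**Figure D5:**
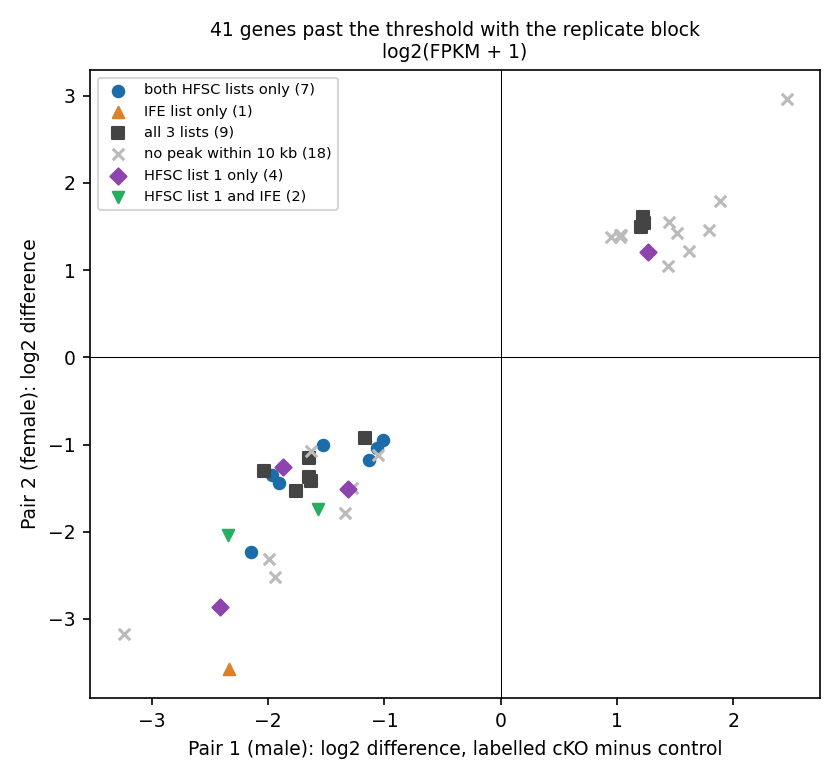
Points are the 41 genes past the threshold (adjusted p under 0.05, limma with the replicate block), by their log2(FPKM + 1) difference between the library labelled cKO and its control in pair 1 (horizontal) and pair 2 (vertical), with symbols for the peak class of the gene. The 7 genes with peaks of both HFSC lists only all lie in the lower left, and 11 of the 18 genes without a peak lie in the upper right.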

How the data were processed

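SOX9 ChIP-seq of HFSCs and IFE cells gave 3 peak lists that the authors deposited with a chromosome, a start and an end per peak (starts are written here from 1), on mm9 per the submitters' processing notes. How peaks were called, at which threshold and against which input is not stated in any label or header used here. No peak height and no read depth come with the lists, so a list can be long through deeper sequencing or a looser threshold. The authors deposited expression as FPKM in 1 table, per the file headers. Cufflinks 1.0.3, TopHat, TopHat2 and Bowtie appear in the submitters' processing notes, with no tool tied to a file. Depth is unknown, so no counting interval was given for FPKM.

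A peak counted for a gene row when it lay within 10 kb of the row's deposited coordinates, which neighbouring genes can share (14454 of the 37298 rows do). Peaks were called shared at 1 bp of overlap, and peaks within 500 bp of a locus start or end were called peaks at gene ends. Ends of genes that lie inside a merged locus are missed by this rule, and peaks there were counted as away from gene ends. The 5′ end of a locus listed for 1 gene was taken from the strand of the same symbol in RefSeq. Shares carry exact (Clopper-Pearson) 95% intervals of counting error. The 28 gene lists hold 776 entries, of which 773 matched the table (7 by identifier); 1 list is not reported here. The members, lists and tests were chosen with earlier results of these data known. Genes were named by a rule: 26 fixed genes, the 12 expressed loci of each class with the most peaks, and up to 4 members of each list and class. The merged loci that lead those 12 led to the addition of loci listed for 1 gene. Other members and genes are named where a count is small or a gene passed the test, and were chosen after their values were seen.

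FPKM of the libraries labelled cKO and control was put on the log2(FPKM + 1) scale and tested by limma 3.58.1 (R 4.3.3; empirical Bayes with trend, two-sided, Benjamini-Hochberg adjustment over all 14455 genes whose mean FPKM reached 1, threshold 0.05), without and with the replicate number as a block. Changes on this scale understate those of low genes. Same-numbered libraries share sex, age and treatment days per the labels, and their deviations from the group means correlated at 0.812 over genes, so the numbers pair the libraries.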

Additional observations from a re-analysis of the deposited data

How the results depend on the processing

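Each class count depends on the window, the row definition and the list left out. For both HFSC lists only, the count was 1181 with a window of 50 kb, 441 over expressed loci, 444 over distinct loci, 308 with peaks at gene ends only and 278 over loci listed for 1 gene. For the IFE list only, it was 1546 with peaks of at least 500 bp, 1410 over expressed loci, 1539 over distinct loci, 1359 with peaks away from gene ends and 1054 over loci listed for 1 gene. For all 3 lists, it was 6627 with a window of 50 kb, 2112 over expressed loci, 1731 over distinct loci, 1731 with peaks away from gene ends, 1394 with peaks at gene ends and 1093 over loci listed for 1 gene. Leaving out 1 HFSC list at a time gave 1307 to 3244, 3179 to 4311 and 4071 to 5203 for the 3 classes. Restricting rows to expressed, distinct or single-gene loci lowers counts by construction, and the other causes were not tested. The settings by position, by loci listed for 1 gene and without peaks over 3 kb were chosen after seeing the data.

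HFSC list 2 was shared more with HFSC list 1 than with the IFE list at 63.3% against 51.9% with an overlap covering 50% of each peak, 61.6% against 51.2% with centres within 200 bp, 64.3% against 45.1% with peaks of at least 500 bp and 82.4% against 51.4% away from gene ends, but not at gene ends, with 50% against 64.1%. These values by position, here and in what follows, keep only peaks of that position in both lists, whereas the shares of the report let a peak meet any peak of the other list. The IFE list shared 38.8%, 40.7% and 47.7% with HFSC list 1 for the overlap of 50%, the centres and a distance of 1 kb, and 49.8% away from gene ends and 38.5% at them. With HFSC list 2 it shared 29.8%, 29.4% and 34.9%, then 38.8% with peaks of at least 500 bp, 28.4% away from gene ends and 39.2% at them.

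Median control FPKM of the class of both HFSC lists only was 4.52 over both libraries, 5.62 at a window of 0 kb, 2.01 at 50 kb and 11.6 over distinct loci. For the IFE list only it was 3.05, then 4.83 at 0 kb, 4.48 at 1 kb, 1.01 at 50 kb and 6.67 over distinct loci. For all 3 lists it was 7.19, then 4.54 at 50 kb and 15.7 over distinct loci. Without either control library it lay between 3.52 and 5.04, 2.55 and 3.16, and 5.63 and 7.60. The IFE class had the lowest of the 3 medians in each of these settings.

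With the replicate block 41 genes passed limma's threshold and without it 0, also with a pseudocount of 0.1 or 5 and with no filter. Leaving out 1 library at a time without the block gave 1 to 41 genes. With the block, the class of both HFSC lists only held 4 called genes with a window of 0 or 1 kb, 6 at 50 kb, 11 with peaks of at least 500 bp and 3 over loci listed for 1 gene, and the IFE class between 0 and 4 in these settings. Of 1148 recomputed counts of list members, 833 stayed within 1.5 times the reported count. Peak heights, depth and IFE replicates limit what the lists can show.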

Other observations

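Hox genes, which hold positional identity in skin, often share merged loci, so a few peaks set their classes. Hoxa2 to Hoxa7 share 1 merged locus with 3 peaks of HFSC list 1, none of HFSC list 2 and 2 of the IFE list. Hoxa9, Hoxa10 and Hoxa11 had peaks of the IFE list only, and all 3 rest on the same peak (chr6:52184099-52184713), with 1 more at Hoxa9. Hoxb2 to Hoxb8 had peaks of HFSC list 1 only, at 4 loci. Hoxc4 to Hoxc10 had peaks of all 3 lists, but none of these 6 genes held a region common to the 3. Of the 39 Hox genes, 15 had no peak, the Hoxd genes among them.

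Of 30 cell cycle genes, 6 had peaks of the IFE list only (Ccna2, E2f1, Aurka, Aurkb, Bub1 and Mcm2). As many, 6, had peaks of HFSC list 1 alone, and 3 had peaks of HFSC list 2 alone. Cdk2 and Ccnd3 had peaks of both HFSC lists only, and the inhibitor Cdkn1a and Rb1 had peaks of all 3. Chromatin regulators had peaks of all 3 lists in 8 of 33, among them Hdac2, Dnmt1 and Kmt2a. Of 19 cartilage genes known as SOX9 targets in chondrocytes, 12 had no peak (63.2%, against 67.3% of all rows). Another 4 (Col11a2, Col10a1, Sox6 and Chst11) had peaks of all 3 lists (21.1%, against 8.7%), each with a region common to the 3. The Col11a2 peaks lay 7160 to 7429 bp outside its locus. Those of Col10a1 lay 5765 to 5936 bp outside a merged locus of 130265 bp that 4 rows share. In the controls Col11a2 stood at 0.0810 and 0.00444 FPKM and Col10a1 at 0.0250 and 0. Sox6 and Chst11 also share their loci with other rows. The median locus of the group was 61.6 kb long, against 17.1 kb over all rows. Wwp2, the host gene of a cartilage microRNA, had 3 peaks of HFSC list 1 alone.

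Housekeeping groups and genes of other tissues give the scale. Ribosomal protein genes were in all 3 lists in 7 of 40 and in the IFE list only in 5, and respiratory chain genes in 6 and 1 of 36. The share of rows with no peak was 67.3% over all rows and 48.5% over expressed ones. It was 90% for 20 liver genes, 85% for 20 fibroblast and endothelial genes, 76.2% for 21 immune genes and 75% for 28 neuronal genes, the last 2 near the share over all rows. Among the sebocyte genes, Fasn and Fabp5 had peaks of the IFE list only and Acly of both HFSC lists only. Of melanocyte genes, Mitf and Gpnmb had peaks of both HFSC lists only and Dct of the IFE list only.

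Of 31 genes of EGF and FGF signalling, 4 had peaks of all 3 lists (Tgfa, Erbb3, Errfi1 and Fgfr2, the last in a merged locus of 42 rows), each with a region common to the 3. The receptors Erbb2 and Fgfr4 and the inhibitor Spry1 had peaks of the IFE list only, and Spred1 of both HFSC lists only. Of 18 SOX family genes found in the table, 13 had no peak, Sox9, Sox6 and Sox15 had peaks of all 3 lists and Sox4 had 1 of the IFE list only.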
